A study of Rattus norvegicus with 8 samples.

Results

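The genes described here are the liver X receptors (LXRs) and the genes around them that move cholesterol out of cells: *Nr1h3*, *Nr1h2*, *Abca1*, *Abcg1*, *Abca5*, *Mylip*, *Apoe* and *Lpl*. They were taken by symbol, as every probe set that the array annotation gives to 1 of these 8 genes and to no other gene. This gave 15 of the 31042 probe sets of the table, and 8 of its 14217 named genes. *Abca1* has 4 probe sets, *Abcg1* 3, *Nr1h2* and *Apoe* 2 each, and the other genes 1 each.

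The reporter cells were mononuclear cells of peripheral blood (PBMCs, which are lymphocytes and monocytes) from 2 healthy male Brown Norway (BN) rats about 180 days old, BN1 and BN2. Each culture held 500000 cells in medium with 20% plasma for 6 h, and each of the 8 cultures went to its own Affymetrix rat expression array. The 5% IH plasma was 1 pool from 5 male Sprague-Dawley (SD) rats that had breathed 5% oxygen in repeated cycles of intermittent hypoxia (IH) over 1 h a day on postnatal days 2 to 6, and that were bled, fasted, as adults at PD114. The 10% IH plasma was 1 pool from 3 such rats given 10% oxygen. The control plasma was 1 pool from 8 male SD rats kept at 21% oxygen and likewise bled, fasted, at PD114. Autologous BN plasma, of rats about 180 days old and without any SD plasma, gave the baseline. A ratio to autologous plasma thus joins rat strain, rat age, housing site and foreign against own plasma, which cannot be told apart. Fasting is stated for the SD rats alone, so it may be joined to these as well. With 1 pool per plasma, the 2 arrays of an SD plasma stand for 2 reporter donors, and the p-values do not cover the spread between the rats that gave plasma. The source labels of both autologous arrays are ambiguous about which donor gave cells and which gave plasma.

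LXR alpha (*Nr1h3*) and LXR beta (*Nr1h2*) are nuclear receptors that bind oxysterols, pair with a retinoid X receptor and switch on genes when cholesterol builds up in a cell. Their best known targets in macrophages are the transporters *Abca1*, which loads cholesterol and phospholipid onto apolipoprotein A-I, and *Abcg1*, which passes cholesterol to larger lipoproteins. *Mylip* (also called Idol) marks the low density lipoprotein receptor for breakdown, *Apoe* is a cholesterol acceptor and receptor ligand, *Lpl* frees fatty acids from lipoproteins, and *Abca5* is a lysosomal lipid transporter.

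Values are log2 expression after Robust Multichip Analysis, ratios are differences of these log2 values, and levels are compared only within a probe set. The study's criterion asks for a Rank Product permutation p under 0.05 in 1 direction and a change of group means beyond 1.2-fold. With all arrays, every probe set past the fold in the 3 comparisons among SD plasmas also passed the p as coded here. These were 964 of 964 for 5% IH with control, 2157 of 2157 for 10% IH with control and 1967 of 1967 for 5% IH with 10% IH. A call made here in these comparisons is thus the 1.2-fold limit alone. The study also counted 964 for 5% IH but fewer than 2157 for 10% IH, so this need not hold for its own calls. limma was fitted to all 31042 probe sets, its p-values were adjusted over them by Benjamini-Hochberg, and it gives the standard errors (SE) and the 95% intervals. Array medians lay between 5.53 and 5.56 and arrays correlated at 0.990 to 0.998. T cell markers, 6 of 7 of them above the array median on every array, fitted the PBMC label, and their mean log2 level was 9.48 to 9.64. Of the 15 probe sets, 5 lay under the 40th percentile of mean level (4.87): those of *Abca5* and *Lpl*, the dimmer ones of *Nr1h2* and *Apoe*, and the dimmest of *Abca1*. With background so near, their ratios can understate a change.

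With 5% IH plasma, *Nr1h3* and *Abca1* were above control and *Abca5* below it. In all, 5 of the 15 probe sets met the criterion as higher and 1 as lower. Of all probe sets, 1.58% met it as higher and 1.52% as lower. All 4 *Abca1* probe sets were among the 5, and by brightest probe set 2 genes were higher and 1 lower. The genes were chosen with earlier results of these data known, so member counts beside these shares are a description and not a test. With 10% IH plasma, *Nr1h3* was higher by nearly the same amount and *Abca1* was within 0.12 of control on the log2 scale. There 2 of the 15 met the criterion as higher and 0 as lower, against 3.58% and 3.37% of all probe sets. Set directly against each other, 5% IH plasma gave more *Abca1* and less *Abca5*, *Mylip* and *Nr1h2* than 10% IH plasma, with 2 probe sets higher and 3 lower (3.28% and 3.06% of all). In limma 0% of probe sets, members included, had an adjusted p under 0.05 in these 3 comparisons. At an unadjusted p under 0.05, limma gave 3 of the 15 with 5% IH against control, 2 with 10% IH against control and 3 with 5% IH against 10% IH, and over all probe sets 790, 1612 and 1452. The median log2 ratio of the 15 was 0.09, 0.03 and -0.04 in these comparisons, while that of all probe sets was within 0.01 of 0. The first 2 comparisons share the control arrays.

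*Nr1h3*, measured by probe set 1387365_at, was 5.30 in BN1 and 5.44 in BN2 cells with 5% IH plasma, 5.31 and 5.43 with 10% IH, 5.04 and 5.03 with control, and 4.20 and 4.30 with autologous plasma. The 4 IH arrays lay above the control arrays and the control arrays above the autologous ones, with no overlap. Groups did not overlap for 26.3% of all probe sets with 5% IH against control and 33.9% with 10% IH against control. With control against autologous plasma this share was 39.1%. Against control the ratio was 0.34 (SE 0.0952) with 5% IH, 0.27 in BN1 and 0.42 in BN2, and 0.34 (SE 0.0952) with 10% IH, 0.27 in BN1 and 0.40 in BN2. That is 1.27-fold and 1.26-fold. Both ratios met the criterion, and limma's adjusted p was 1 and 0.92. The ratio with 10% IH was 0.28 once the BN2 array of 10% IH was left out, past the fold but no longer past the permutation p. The difference between the 2 IH plasmas was 0.00, with a 95% interval of -0.21 to 0.22. *Nr1h3* is among the genes the study picked out on these same arrays, so its direction is not independent evidence.

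*Nr1h2*, the receptor found in most cell types, did not follow *Nr1h3*. Its brighter probe set, 1370208_at, was 7.91 and 7.82 with 5% IH, 8.51 and 7.86 with 10% IH, 7.69 and 7.86 with control, and 7.75 and 7.92 with autologous plasma. The BN1 array with 10% IH plasma stood alone, and the other 7 lay between 7.69 and 7.92. The ratio of 10% IH to control, 0.41 (SE 0.185), met the criterion, but it was 0.82 in BN1 and 0.00 in BN2, and without that array it was 0.09. Between the IH plasmas the ratio of 5% IH to 10% IH, -0.32 (SE 0.185), also met it, and it was 0.0042 without the same array. With 5% IH the ratio was 0.09 (SE 0.185). The dimmer probe set, 1389854_at, stayed between 3.85 and 4.04 on all arrays and met the criterion in 0 comparisons.

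**Figure D1:**
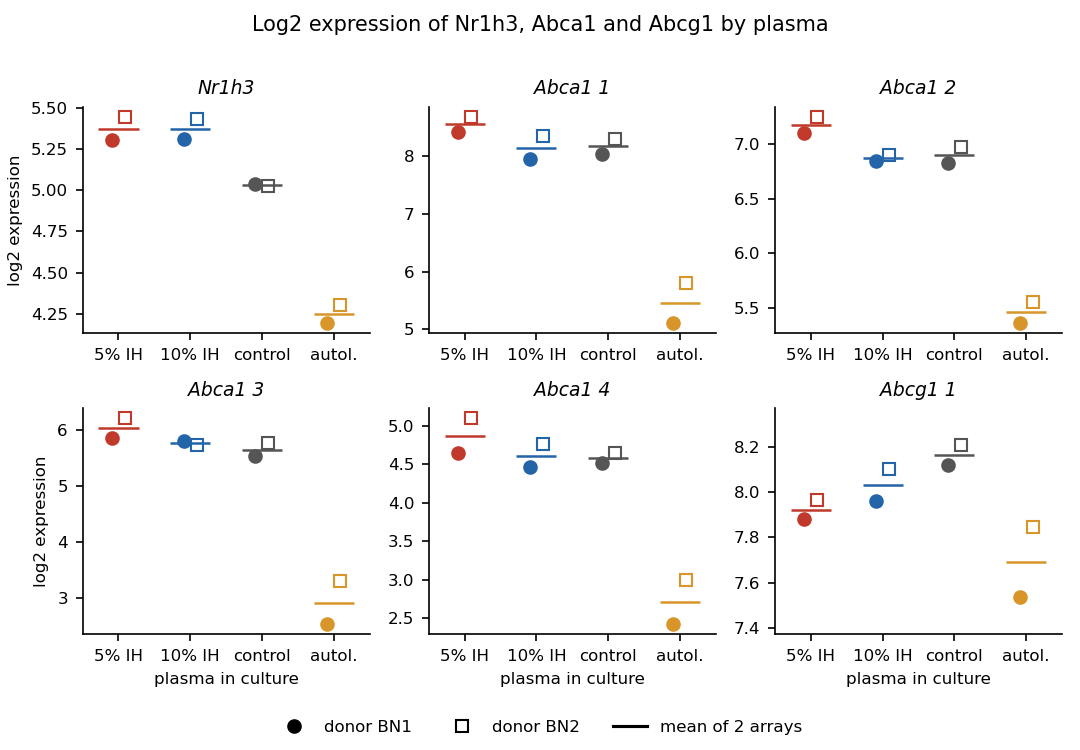
Log2 expression (y axis, its own scale in each panel) of *Nr1h3*, the 4 *Abca1* probe sets in order of brightness and the brightest *Abcg1* probe set, by plasma (x axis: 5% IH, 10% IH, control, autologous). Filled circles are donor BN1, open squares donor BN2 and bars the mean of 2 arrays. For *Nr1h3* and each *Abca1* panel the autologous arrays lie below all arrays with SD plasma. The brightest *Abca1* probe set was at 5.11 and 5.80 there, against 7.95 to 8.67 on the other arrays.

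*Abca1* gave the largest ratios to autologous plasma of the 8 genes and was also above control with 5% IH. Its brightest probe set, 1382431_at, was 8.43 in BN1 and 8.67 in BN2 cells with 5% IH, 7.95 and 8.35 with 10% IH, 8.03 and 8.30 with control, and 5.11 and 5.80 with autologous plasma. Both 5% IH arrays lay above both control and both 10% IH arrays, while the control and 10% IH arrays overlapped. Of all probe sets, 26.3% did not overlap between 5% IH and control, and 32.4% between 5% IH and 10% IH. Against control, the 4 probe sets were higher with 5% IH by 0.38 (SE 0.223), 0.27 (SE 0.106), 0.38 (SE 0.223) and 0.29 (SE 0.207), from the brightest to the dimmest, and all 4 met the criterion. Both donors gave a ratio above 0 in each probe set, 0.13 to 0.39 in BN1 and 0.27 to 0.45 in BN2. The ratio of the brightest was under the 1.2-fold limit without the BN2 array of 5% IH (0.26) or the BN1 array of control (0.25). It was above the limit without the BN1 array of 5% IH (0.51) or the BN2 array of control (0.52). Leaving out 1 array sets 1 donor against 2, and BN2 lay above BN1 with each plasma. Within donor the ratio of the brightest was 0.39 in BN1 and 0.37 in BN2, and with donor as a block its SE was 0.122. With 10% IH the same ratios were -0.02, -0.03, 0.12 and 0.03, none of which met the criterion, and the interval of the brightest was -0.52 to 0.49.

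Between the IH plasmas *Abca1* was higher with 5% IH by 0.40 (SE 0.223) and 0.30 (SE 0.106) in the 2 brighter probe sets, which met the criterion, and by 0.26 and 0.26 in the dimmer ones, just under its fold. limma's adjusted p was 0.981 for the 4. Without the BN1 array of 10% IH the first of these ratios was 0.20, and without the BN2 array of 5% IH it was 0.28, neither of which met the criterion. Without the BN1 array of 5% IH it was 0.52 and without the BN2 array of 10% IH 0.60, both above the fold. These 4 ratios also carry the difference between donors. Within donor the ratio was 0.47 in BN1 and 0.33 in BN2.

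The promoter of *Abca1* is shown because LXR is known in mouse and human to act on it through a direct repeat of the nuclear receptor half-site AGGTCA. RefSeq promoters, in build GRCr8, were found for 6 of the 8 genes (8 promoters), all but *Abcg1* and *Lpl*. Each is 300 bases long, 250 of them before a start. A loose form of the repeat was searched on both strands, GGTNA, then 5 bases of any kind, then GGTCA, worded to admit the known *Abca1* element. It occurred in 77 of 33469 rat promoters (0.23%) and in 1 of the 8 member promoters, that of *Abca1*. The exact form, AGGTCA, 4 bases and AGGTCA, overlaps the loose one and occurred in 2 of 33469 (0.00598%) and in 0 of the 8. The searched *Nr1h3* promoter, chr3:97623180-97623479, lies inside its RefSeq gene, which reaches to chr3:97632053, so the outer end of that gene was not searched. The 250 bases before the *Abca1* start used lie on the minus strand at chr5:72596474-72596723 and are given with the match in capitals. The match falls at chr5:72596529-72596543, bases -70 to -56 from that start, and reads as the repeat on the strand opposite to the gene. The RefSeq gene *Abca1* reaches to chr5:72596563, so that start and the match lie inside it.
*Abca1* promoter: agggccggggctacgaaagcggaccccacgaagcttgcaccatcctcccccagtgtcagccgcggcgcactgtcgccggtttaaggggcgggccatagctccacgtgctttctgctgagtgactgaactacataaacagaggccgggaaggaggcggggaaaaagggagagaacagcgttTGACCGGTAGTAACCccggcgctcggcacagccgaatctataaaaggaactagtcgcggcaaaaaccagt
The match describes letters alone, since binding was not measured in these cultures.

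*Abcg1*, the partner of *Abca1* in efflux, was not higher with IH plasma. Its brightest probe set, 1368103_at, was 7.88 and 7.96 with 5% IH, 7.96 and 8.10 with 10% IH, 8.12 and 8.21 with control, and 7.53 and 7.85 with autologous plasma. Its order was thus control, 10% IH, 5% IH and autologous, and the 2 IH plasmas overlapped. The ratios to control were -0.24 (SE 0.119) with 5% IH and -0.13 (SE 0.119) with 10% IH, and neither met the criterion. With 5% IH it lay close to the limit: it was -0.29 without the BN1 array of control and -0.28 without the BN2 array of 5% IH, and met the criterion in both cases. The other 2 probe sets had ratios of -0.05 and -0.03 with 5% IH and 0.05 and 0.05 with 10% IH.

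*Abca5* was the one member below control with 5% IH plasma by the criterion. Its probe set, 1384469_at, was 3.72 and 3.91 with 5% IH, 4.17 and 4.17 with 10% IH, 4.44 and 4.41 with control, and 4.24 and 4.22 with autologous plasma. Levels were low on all 8 arrays, and no 2 of the 4 plasmas overlapped. In a single comparison, 26.3% to 39.4% of all probe sets did not overlap. With 5% IH it was lower than control by 1.53-fold, a ratio of -0.61 (SE 0.0935), with -0.72 in BN1 and -0.50 in BN2. limma's adjusted p was 0.545, the lowest value that occurred in this comparison. With 10% IH the ratio was -0.25 (SE 0.0935), short of the fold, and between the IH plasmas it was -0.36 (SE 0.0935), which met the criterion and was -0.26, under it, without the BN1 array of 5% IH. The study also listed *Abca5* from these arrays, so its direction is not independent evidence.

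**Figure D2:**
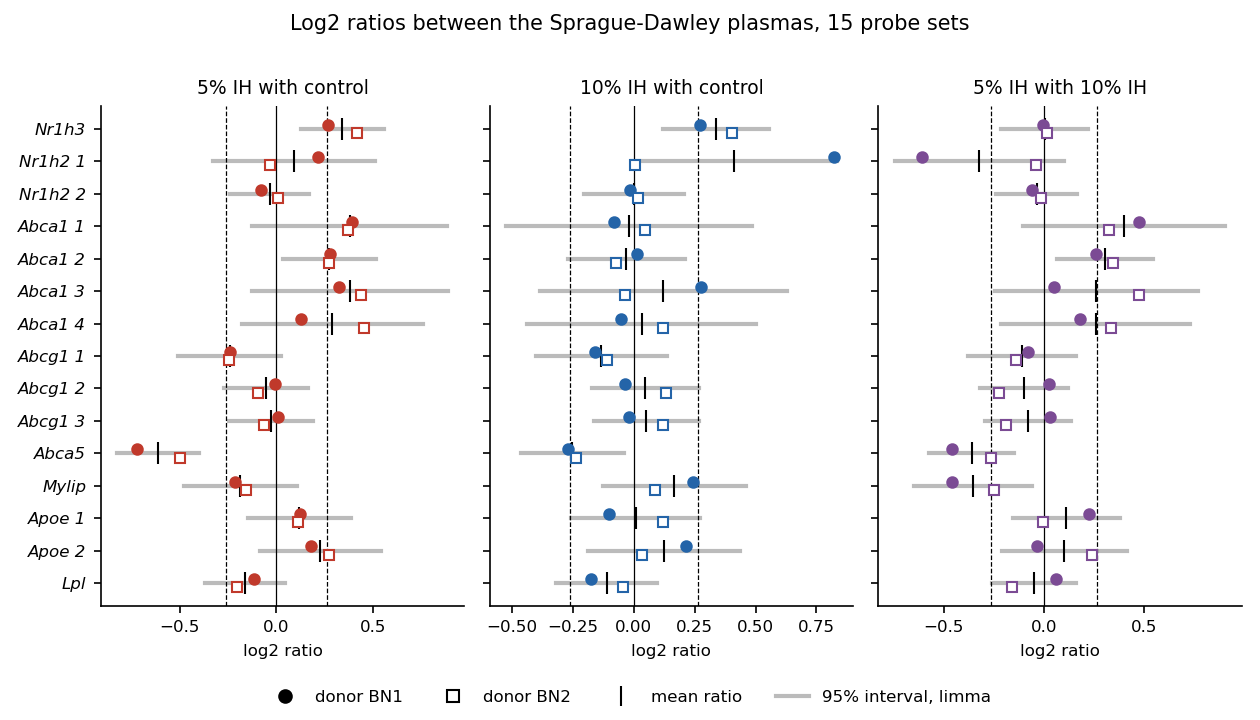
Log2 ratios (x axis, each panel on its own scale) of the 15 probe sets (y axis, numbered by brightness within a gene) for 5% IH with control, 10% IH with control and 5% IH with 10% IH. Filled circles are donor BN1, open squares donor BN2, black ticks the mean ratio, grey bars limma's 95% interval and dashed lines the limit of 1.2-fold on either side. The 4 *Abca1* probe sets lie right of 0 with 5% IH and around 0 with 10% IH, and *Nr1h3* is at 0.34 in both.

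*Mylip* was bright, and its ratios to control stayed under the 1.2-fold limit. Probe set 1389474_at was 9.36 and 9.43 with 5% IH, 9.82 and 9.68 with 10% IH, 9.57 and 9.59 with control, and 9.36 and 9.76 with autologous plasma. The control arrays lay between those of the 2 IH plasmas, and the autologous pair spanned nearly the whole range. In a comparison among SD plasmas, 26.3% to 33.9% of all probe sets did not overlap. The ratio to control was -0.19 (SE 0.129) with 5% IH and 0.17 (SE 0.129) with 10% IH, neither of which met the criterion. Between the IH plasmas it was -0.35 (SE 0.129), -0.46 in BN1 and -0.25 in BN2, which met it.

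*Apoe* and *Lpl* met the criterion in 0 of the 6 comparisons. The brighter *Apoe* probe set, 1370862_at, was 5.64 and 5.64 with 5% IH, 5.41 and 5.64 with 10% IH, 5.51 and 5.52 with control, and 5.59 and 5.32 with autologous plasma. Its ratio to control was 0.12 (SE 0.117) with 5% IH and 0.01 (SE 0.117) with 10% IH, and the dimmer one, 1371288_at, gave 0.23 and 0.12. *Lpl*, probe set 1386965_at, was 2.75 to 3.02 on the 8 arrays, under the 40th percentile of the table, with ratios to control of -0.16 (SE 0.0915) and -0.11 (SE 0.0915).

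**Figure D3:**
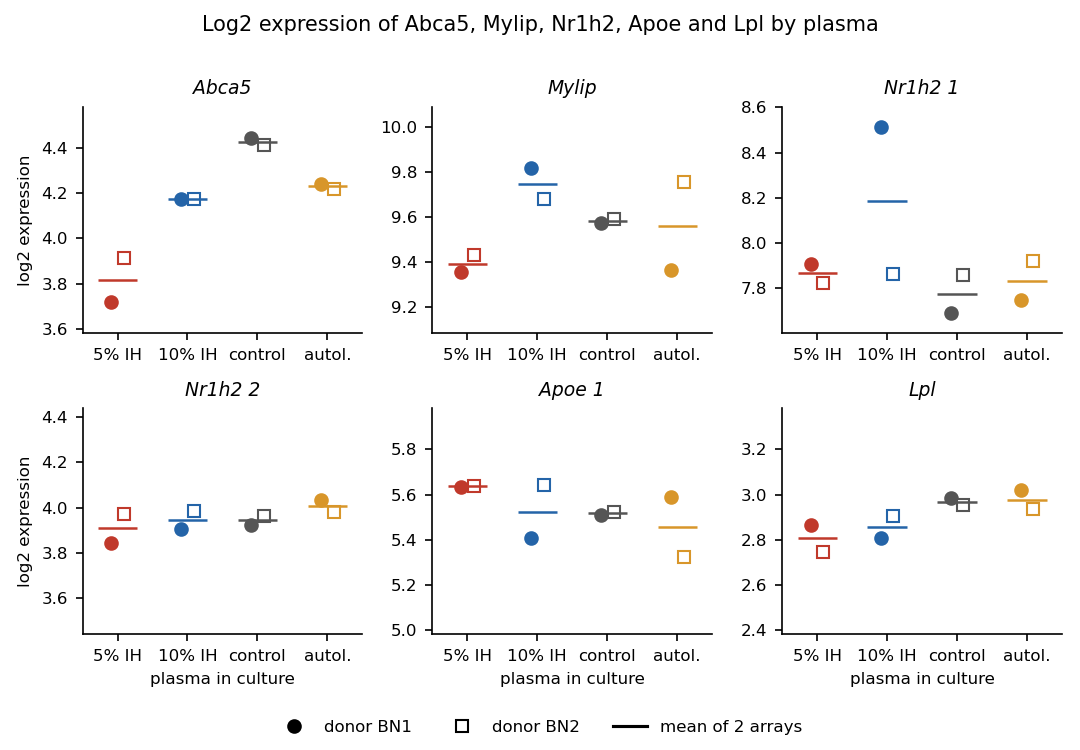
Log2 expression (y axis, each panel on its own scale) of *Abca5*, *Mylip*, both *Nr1h2* probe sets, the brighter *Apoe* probe set and *Lpl* by plasma (x axis: 5% IH, 10% IH, control, autologous). Filled circles are donor BN1, open squares donor BN2 and bars the mean of 2 arrays. *Abca5* is lowest with 5% IH at 3.72 and 3.91, and 1 array, BN1 with 10% IH at 8.51, sets the mean of the brighter *Nr1h2* probe set.

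Against autologous plasma, all 3 SD plasmas gave more *Nr1h3* and *Abca1*. With 5% IH, 5 of the 15 probe sets met the criterion as higher and 1 as lower (5.41% and 5.36% of all probe sets). With 10% IH, 8 did as higher and 0 as lower (5.13% and 5.21%), and with control 6 and 0 (5.33% and 5.15%). In limma the *Nr1h3* probe set and the 4 of *Abca1* had an adjusted p under 0.05 as higher with each plasma, and 0 as lower, with or without donor as a block. Over all probe sets limma called 1.71% higher and 0.248% lower with 5% IH, 1.2% and 0.0548% with 10% IH, and 1.48% and 0.293% with control. The median of the 15 probe sets was 0.18, 0.31 and 0.20, and that of all probe sets -0.02, -0.01 and -0.01. By the brightest probe set of each gene, the member median was 0.11, 0.26 and 0.13. The 3 comparisons share the autologous arrays.

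*Abca1* by its brightest probe set was higher than with autologous plasma by 3.10 with 5% IH (8.55-fold, SE 0.223, adjusted p = 9.53e-05 in limma), by 2.70 with 10% IH (6.48-fold, adjusted p = 0.000297) and by 2.71 with control (6.56-fold, adjusted p = 0.000281). Each donor showed it, with ratios of 3.31 and 2.88, 2.84 and 2.55, and 2.92 and 2.51 in BN1 and BN2 cells. The other 3 probe sets gave 1.72 to 3.10 with 5% IH, 1.41 to 2.84 with 10% IH and 1.44 to 2.72 with control. *Nr1h3* was higher by 1.12 with 5% IH (2.18-fold, adjusted p = 0.000272), 1.12 with 10% IH (2.17-fold, adjusted p = 0.00035) and 0.78 with control (1.72-fold, adjusted p = 0.00302), each with an SE of 0.0952. Autologous arrays were therefore the lowest of the 4 groups for both genes.

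The brightest *Abcg1* probe set was above autologous plasma by 0.23 with 5% IH, 0.34 with 10% IH and 0.48 with control (SE 0.119), of which the last 2 met the criterion, with limma's adjusted p of 0.376 and 0.118. The middle one, 1387054_at, was at -0.05, 0.05 and 0.00, while the dimmest, 1373995_at, was at 0.23, 0.31 and 0.26 and met it with 10% IH, so the probe sets of this gene disagreed. With the mean of its probe sets the ratios were 0.23 with 10% IH and 0.24 with control, under the fold limit. Without the BN1 array of autologous plasma the brightest gave 0.18 with 10% IH, and without the BN2 array of 10% IH 0.27, neither of which met the criterion. *Abca5* was lower with 5% IH (-0.41, SE 0.0935, adjusted p = 0.0755), and *Nr1h2* was higher with 10% IH by 0.35 (SE 0.185, adjusted p = 0.597), a call lost with ratios within donor, as BN2 gave -0.06, and at 0.03 without the BN1 array of 10% IH.

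**Figure D4:**
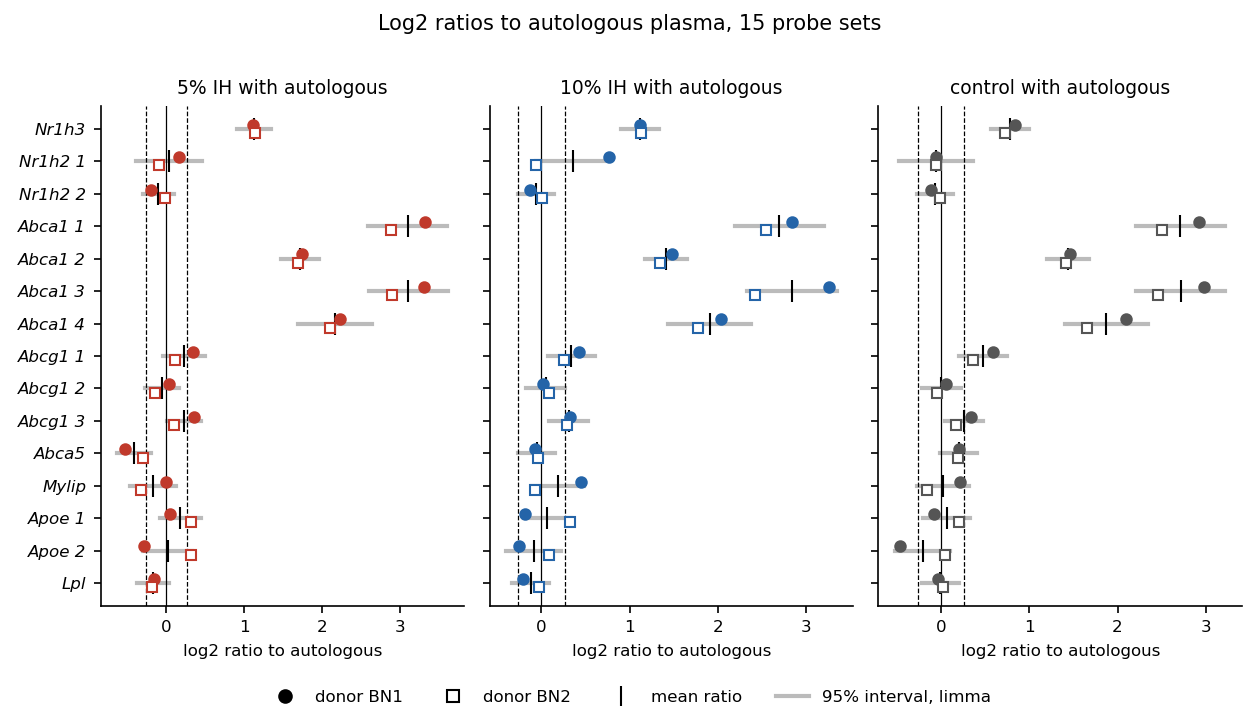
Log2 ratios to autologous plasma (x axis, each panel on its own scale) of the 15 probe sets (y axis, numbered by brightness within a gene) for 5% IH, 10% IH and control plasma. Filled circles are donor BN1, open squares donor BN2, black ticks the mean ratio, grey bars limma's 95% interval and dashed lines the limit of 1.2-fold on either side. *Nr1h3* and the 4 *Abca1* probe sets stand far to the right in each panel, at 0.78 to 3.10, and the other genes lie between -0.41 and 0.48.

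Most monocyte markers were, like *Abca1* and *Nr1h3*, higher with the SD plasmas than with autologous plasma. Of 8 listed, 7 were measured, and their summed signal on the linear scale was 3734 and 4384 with 5% IH, 3705 and 3843 with 10% IH, 3172 and 3751 with control, and 445 and 741 with autologous plasma. Against autologous plasma 6 of the 7 met the criterion as higher with each SD plasma, with a median ratio of 2.36 with 5% IH, 2.28 with 10% IH and 2.08 with control. Of all probe sets 5.41%, 5.13% and 5.33% met it as higher there. In the comparisons among SD plasmas given below, that share was 1.58% with 5% IH and 3.58% with 10% IH against control, and 3.28% with 5% IH against 10% IH. *Cd14*, the lipopolysaccharide co-receptor, was higher by 5.68, 5.31 and 5.28, and *Csf1r*, the receptor for colony-stimulating factor 1, by 2.95, 2.92 and 2.89. *Cd163*, a haemoglobin scavenger receptor, did not meet it and was at 2.87 to 3.09 in the 4 groups. With 5% IH against control 3 of the 7 met the criterion as higher, *Adgre1* by 0.54, *Cd14* by 0.40 and *Itgam* by 0.28, and with 10% IH 0 of 7 did. With 5% IH against 10% IH 2 of the 7 did, *Adgre1* by 0.55 and *Cd14* by 0.37, and limma called 0 in these 3 comparisons. Of 4 neutrophil markers measured, 2 met the criterion as higher than with autologous plasma with 5% IH (*S100a8* at 0.45 and *Camp* at 0.38), 1 with 10% IH (*Camp* at 0.35) and 2 with control (*S100a8* at 0.34 and *Camp* at 0.33), and limma called 0. In RNA of a mixed culture, fewer cells of a type and less RNA per cell cannot be told apart, and the part of monocyte number in the ratios of *Abca1* and *Nr1h3* was not tested. T cell markers met the criterion in 0 of 7 genes in each of the 6 comparisons.

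**Figure D5:**
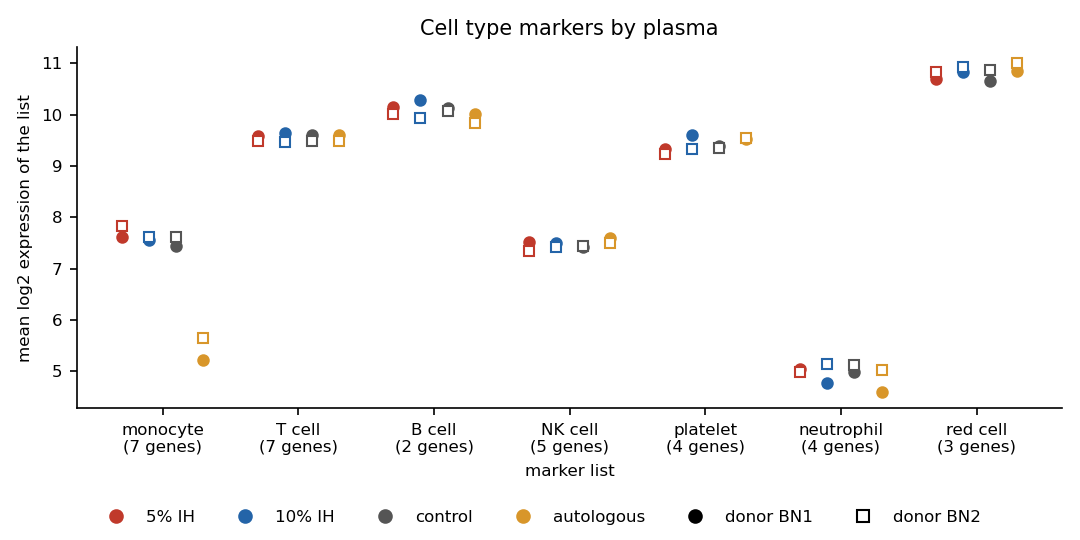
Mean log2 expression (y axis) of the measured markers of 7 cell types (x axis), with 5% IH, 10% IH, control and autologous plasma from left to right in each list. Filled circles are donor BN1 and open squares donor BN2. The monocyte mean is 5.22 and 5.65 with autologous plasma, against 7.45 to 7.82 with the other plasmas, while the T cell mean stays between 9.48 and 9.64.

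The counts of this list and the lists below stand beside these shares of all probe sets that met the criterion. With 5% IH against control, 1.58% were higher and 1.52% lower, and with 10% IH 3.58% and 3.37%. Between the IH plasmas the shares were 3.28% and 3.06%. Against autologous plasma they were 5.41% and 5.36% with 5% IH, 5.13% and 5.21% with 10% IH, and 5.33% and 5.15% with control. Of 15 partners and cofactors of the receptor measured, 0 were higher and 1 was lower with each IH plasma against control. It was *Pparg*, a nuclear receptor upstream of LXR in macrophages, at -0.28 with 5% IH and -0.29 with 10% IH (SE 0.137) and at a low level of 3.04 to 3.33. *Rxra*, the retinoid X receptor that LXR pairs with, was at -0.10 and -0.04. Against autologous plasma 0 of 15 were called with 5% IH and control, and 1 was lower with 10% IH, the corepressor subunit *Tbl1x* at -0.32. The list medians lay between -0.08 and 0.01.

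Of 19 other LXR target genes measured, 0 met the criterion with 5% IH against control and 1 was lower with 10% IH, the fatty acid desaturase *Scd* at -0.29 (SE 0.121). *Srebf1*, the lipogenic regulator that LXR induces in liver, was at 0.00 and 0.15, and *Fasn*, fatty acid synthase, at 0.02 and -0.04. Against autologous plasma 2 were higher with 5% IH, 3 with 10% IH and 3 with control, where 1 was also lower, the phospholipid transfer protein *Pltp* at -0.27. Beyond the 2 genes that limma called, these were *Scd* with control (0.28) and *Lpcat3*, an enzyme that remodels phospholipids, with 10% IH (0.31, of which BN2 gave -0.07). limma called *Plin2* and *Smpdl3a* with each plasma. *Plin2*, the coat protein of lipid droplets, was higher by 2.55, 2.31 and 2.39 (adjusted p = 3.56e-05, 8.74e-05 and 6.79e-05), and *Smpdl3a*, a secreted phosphodiesterase, by 0.56, 0.51 and 0.53 (adjusted p = 0.00828, 0.0187 and 0.013). *Srebf1* was at -0.02, 0.13 and -0.02 there, and the medians of the list were -0.01, 0.02 and 0.02.

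Enzymes that make or break down oxysterols, the ligands of LXR, gave 0 of 8 calls with either IH plasma against control. *Ch25h*, a cholesterol hydroxylase, was at 0.07 with 5% IH and 0.11 with 10% IH. Between the IH plasmas *Cyp7a1* (0.41) and *Cyp7b1* (0.31) were higher and *Sult2b1* (-0.34) lower, but the first 2 had mean levels under 4. *Cyp7a1* was at 0.10 in BN1 and 0.72 in BN2 cells, and *Sult2b1* at -0.01 in BN1 and -0.67 in BN2 cells. Against autologous plasma *Cyp7a1* was lower with 10% IH (-0.56) and control (-0.39), *Cyp27a1* was lower with control (-0.30, in BN1 cells alone), and 0 of 8 were called with 5% IH.

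Among 18 genes of cholesterol storage and transport, 1 was higher with 5% IH against control, the sterol carrier *Gramd1b* at 0.31 (SE 0.11), and 0 met the criterion with 10% IH. Against autologous plasma 5 were higher with 5% IH, 4 with 10% IH and 2 with control, where *Lcat*, the plasma cholesterol acyltransferase, was lower (-0.28). *Soat1*, which esterifies cholesterol for storage, was higher by 0.71, 0.76 and 0.67 (adjusted p = 0.101, 0.103 and 0.134, or 0.0453, 0.0462 and 0.0623 with donor as a block). *Nceh1*, which frees it again, was higher by 0.48, 0.44 and 0.43 (adjusted p = 0.0162, 0.0397 and 0.0341, or 0.0294, 0.0652 and 0.0538 with the block). *Scarb1*, another efflux receptor, was at -0.01, 0.05 and 0.09.

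Of 11 lipoprotein lipase partners and triglyceride lipases, 2 were lower with 5% IH against control, *Gpihbp1*, which anchors the lipase in capillaries, at -0.27 (SE 0.11) and the hepatic lipase *Lipc* at -0.30 (SE 0.215), the last in BN1 cells alone, and 0 met the criterion with 10% IH. *Angptl4*, an inhibitor of the lipase, was above autologous plasma by 0.66, 0.54 and 0.75 with 5% IH, 10% IH and control (adjusted p = 0.0737, 0.217 and 0.0431, the last 0.0673 with donor as a block). *Mgll*, monoglyceride lipase, was lower in each (-0.45, -0.37 and -0.45), with adjusted p of 0.332, 0.505 and 0.336. Of 5 receptors that *Mylip* or *Apoe* act on, 0 met the criterion with either IH plasma against control. *Lrp1*, an endocytic receptor of *Apoe*, was above autologous plasma 2.28-fold, 2.30-fold and 2.11-fold (adjusted p = 0.00495, 0.00641 and 0.0106). *Trem2*, a lipid receptor of myeloid cells, was lower with 5% IH than with 10% IH (-0.29, SE 0.13) and than with autologous plasma (-0.29).

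Cholesterol synthesis genes, which respond to sterols through another regulator, gave 0 of 13 calls with either IH plasma against control. Between the IH plasmas 3 were higher with 5% IH, the squalene epoxidase *Sqle* by 0.43, *Idi1* by 0.29 and *Cyp51* by 0.27. Against autologous plasma 8 of 13 were higher with 5% IH, 5 with 10% IH and 6 with control, and 0 were lower. Of all probe sets 5.41%, 5.13% and 5.33% were higher there and 5.36%, 5.21% and 5.15% lower. *Sqle* was higher by 0.84, 0.40 and 0.59 (adjusted p = 0.00333, 0.185 and 0.0267) and *Mvd*, mevalonate decarboxylase, by 0.72, 0.61 and 0.54 (adjusted p = 0.00675, 0.022 and 0.0354, the last 0.0536 with donor as a block). The median of the list was 0.30, 0.20 and 0.25 there.

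As a description over the 8 arrays, the named genes whose brightest probe sets ran most like *Abca1*, of 7107 compared, were *Mmp14* (Pearson r = 0.999), *Cd63* (0.998) and *Fcgr1a* (0.997). For *Nr1h3*, of 7108, they were *Cxcl2* (0.985), *Card19* (0.979) and *Nadk* (0.979), and for *Abca5*, of 7108, *Aurkc* (0.885), *Mss51* (0.868) and *Pknox1* (0.838). Only genes with a mean level above the median of the named genes were compared. The arrays share donors and plasma pools, and the autologous pair sets much of the range for *Abca1*, whose 3 like genes were at 3.86 to 6.53 there and at 7.12 to 8.90 on the other arrays. The genes like *Nr1h3* were also lowest there, *Cxcl2* at 3.43 and 3.91 against 7.25 to 8.63 on the other arrays. Those like *Abca5* varied little, *Aurkc* from 6.95 to 7.10, *Mss51* from 8.37 to 8.52 and *Pknox1* from 7.76 to 7.95.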

How the data were processed

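PBMCs of 2 BN donors were cultured with 4 plasmas and hybridized to 8 Affymetrix Rat Genome arrays. The deposited log2 values were made by the authors in Expression Console by Robust Multichip Analysis (background correction, quantile normalization and summary of probes). Partek is named as well, without a version. The quantile step sets arrays to a common distribution, so only relative changes are seen. Of 31042 probe sets, 20826 have 1 gene symbol, 436 several and 9780 none. No further scaling was applied, and 0 values were missing.

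The members and gene lists were chosen with earlier results of these data known. Every probe set of the 8 genes was described. A gene outside them is represented by its brightest single-symbol probe set, and up to 4 genes of a list were named per comparison, those with the largest ratios that met the criterion with both donors the same way, besides a few uncalled genes, monocyte markers and the genes behind small counts, chosen after their values were seen. The Rank Product was coded in R, as the package the study used was not installed, with 4 between-array ratios, 100 permutations within arrays and a 1-sided p. All 8 arrays in 4 groups entered limma 3.58.1 (R 4.3.3), with no block. The Rank Product and limma without a block were tested on simulated data for 5% IH with control, and the other steps were not. Replicate numbers name the donor and so pair the arrays. Same-donor deviations from the group means correlated at 0.240 between 5% IH and control, 0.0590 between 10% IH and control and 0.165 between 5% IH and 10% IH, and at -0.0833, -0.171 and -0.00387 between 5% IH, 10% IH and control and the autologous arrays. Alternatives were donor as a block, arrays of the compared groups alone, trended robust moderation, centring or quantile normalization again, a filter at the 40th percentile, probe sets averaged per gene and each array left out. Gene promoters came from RefSeq, GRCr8. With 2 arrays a group, their number limits the precision.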

Additional observations from a re-analysis of the deposited data

Results flagged for a closer look

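*Mylip* lay on opposite sides of control with the 2 IH plasmas in cells of both donors. Its ratio to control was -0.22 in BN1 and -0.16 in BN2 with 5% IH, and 0.24 and 0.09 with 10% IH. The direct ratio of 5% IH to 10% IH was -0.35 (limma adjusted p = 0.981, unadjusted p = 0.0235), so the difference did not pass adjustment over all probe sets.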

How the results depend on the processing

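The counts of member probe sets with a limma adjusted p under 0.05 stayed within 1.5 times their value under all 84 alternatives. In the 3 comparisons among SD plasmas that value was 0. The lowest limma adjusted p of any probe set there was 0.545, 0.920 and 0.981, so a count that stays at 0 says little. Counts by the criterion did so in 43 of 48, and the others came from leaving out 1 array. With each array left out in turn, the count ran from 3 (without the BN2 array of 5% IH) to 7 for 5% IH with control, from 1 (without either 10% IH array) to 2 for 10% IH with control, from 3 (without the BN2 array of 5% IH) to 6 for 5% IH with 10% IH, from 6 to 8 for control with autologous, from 6 to 8 for 5% IH with autologous, and from 5 (without the BN1 array of autologous) to 9 for 10% IH with autologous. Of 384 gene ratios under an alternative, 359 kept their side of the criterion, 17 lost the call, 6 gained one, 1 moved and 1 reversed. Of the 359, 22 changed sign, all uncalled ratios of at most 0.19 in size. The reversed ratio was that of *Nr1h2* with 5% IH against 10% IH, which was 0.0042 without the BN1 array of 10% IH and ran down to -0.65 without the BN2 array of 10% IH. By the mean of its probe sets *Nr1h2* was at 0.21 with 10% IH against control. With donor as a replicate block, the ratio of *Nr1h2* with 10% IH to autologous stayed at 0.35 but lost its call, and the other 47 gene ratios kept their direction and call. A ratio with 1 array of a compared group left out sets 1 donor against 2, and so includes any difference between donors. Ratios of the 5 dim probe sets are limited by background, and 2 donors give no measure of the spread between plasma pools.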
